A study of Homo sapiens with 15 samples.

Results

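MYC, the genes it is known for driving in the nucleolus, and the chaperonins were followed across 15 RNA sequencing libraries as a set of 42 genes. The set was chosen by gene symbol, but with earlier results of these data known. Its 42 members were all found in both deposited tables, among 60651 genes in the count table and 23792 in the second table. All are labelled MDA-MB231, an established human line from a breast cancer without hormone receptors or HER2 amplification, with KIF20A, a kinesin needed in cytokinesis, either reduced or increased. A depletion dataset held 3 libraries each of CTRL, with genotype WT, and of SG1 and SG3, with genotype KIF20A knockdown. An overexpression dataset held 3 libraries each of EV, with genotype WT, and of KIF20A_OE, with genotype KIF20A overexpression. The sources used here do not give what SG1, SG3 and EV stand for, the promoter behind the overexpression or whether a line was 1 clone. Since no label describes the replicates of a group as separate cultures, the p-values refer to the spread among these libraries alone, and that spread may be technical.

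MYC is a transcription factor that binds DNA as a pair with MAX, and the MXD proteins compete with it for MAX. Many of its known targets build ribosomes: RNA polymerase I transcribes ribosomal RNA in the nucleolus, small nucleolar ribonucleoproteins (snoRNPs) modify and cut it, and assembly factors fold it with ribosomal proteins into the large and the small subunit. Chaperonins are ring-shaped protein folding machines, CCT in the cytosol and HSPD1 with its lid HSPE1 in mitochondria, and several of their genes are also counted among MYC targets.

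The sequence that MYC and MAX prefer, CACGTG, reads the same on both strands. The stretches around it are shown because it is the preferred sequence of the factor the set is named for. In RefSeq promoter windows of GRCh38.p14, which span 250 bases before and 50 bases after a transcription start, 37 of the 42 members matched, and 12 of their 48 windows (25%) held CACGTG, from 12 genes. The share was 7.26% over all 35116 windows and 8.34% over the 22199 windows of protein-coding genes. Base composition differed too, with a median GC content of 64.7% in the member windows against 58.7% and 62.3%. HSPD1 and HSPE1 start on opposite strands of chromosome 2 with 104 bases between their starts, and a single CACGTG lies in that stretch, so 1 motif stands in both windows. Capitals mark the motif in the following windows, each read 5′ to 3′ on the strand of its gene.
HSPE1, chr2:197500347-197500372, plus strand, motif from base -22: gtgattttttCACGTGtcgccagggc
FBL, chr19:39846358-39846383, minus strand, motif from base 6: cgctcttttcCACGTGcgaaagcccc
PES1, chr22:30591882-30591907, minus strand, motif from base 13: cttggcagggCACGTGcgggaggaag
NME1, chr17:51153583-51153608, plus strand, motif from base 34: tgctgcgaacCACGTGggtcccgggc
UTP20, chr12:101280085-101280110, plus strand, motif from base -10: tttttccgtcCACGTGacccactcag
BYSL, chr6:41921517-41921542, plus strand, motif from base 28: cttcagtcccCACGTGcgatccttcc
ODC1, chr2:10448026-10448051, minus strand, motif from base -29: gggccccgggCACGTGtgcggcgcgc
ODC1, chr2:10447992-10448017, minus strand, motif from base 5: cctgcggagaCACGTGgtcgccgagc
Positions are counted from the transcription start, and ODC1 is the member with 2 motifs in 1 window. HSPE1, FBL, PES1 and NME1 are members that were higher in the libraries labelled KIF20A_OE, and UTP20, BYSL and ODC1 are members that were not called there, so both behaviours occur with the motif present. A match describes the letters and is not a measured binding site.

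The depletion libraries held 40895819 to 51018667 counts and the overexpression libraries 15971297 to 22182293 fragments. KIF20A lay at 154 to 171 CPM (counts in a library scaled to 1000000) in CTRL, 91.5 to 147 in SG1 and 60.8 to 86.3 in SG3, with no overlap between CTRL and either knockdown group, but edgeR called neither difference (adjusted p = 0.913 and 0.33). The fall of KIF20A in SG3, a log2 fold change of -1.10, was called by DESeq2 (adjusted p = 0.000166) and by edgeR with no filter on low counts (adjusted p = 1.85e-07). The difference in SG1 was called by neither (adjusted p = 1 and 0.581). In FPM, the same measure for fragments, KIF20A was 101 to 143 in EV and 269 to 1348 in the libraries labelled KIF20A_OE. Those 3 libraries also stood apart from the line they are labelled as. Of 4 genes that mark MDA-MB231, all 4 were lower in them by limma (adjusted p of 6.35e-09 to 6.79e-05), and their summed level was 362 to 803 FPM against 4518 to 5262 in EV. The surface receptor gene CD44 lay at 0.125 to 1.23 FPM against 523 to 788, the receptor kinase gene AXL at 0.75 to 0.811 against 811 to 1107, and the caveolin gene CAV1 at 13.8 to 26.5 against 664 to 771. Among genes of other cell types, 3 of 5 leukocyte genes were in this table. Of these, PTPRC and LYZ were listed at 0 in all libraries labelled KIF20A_OE, and each had 0 to 15 fragments per EV library. So few fragments say little, and these 2 genes do not stand for the leukocyte list as a whole. Fibroblast markers summed to 82.8 to 105 FPM against 28.5 to 99.8, but limma called all 5 tested, 3 higher (COL1A1, COL3A1 and C1S) and 2 lower (PDGFRB and COL1A2, which was listed at 0 in all libraries labelled KIF20A_OE). Endothelial markers summed to 0.91 to 36.2 FPM against 17.5 to 30.6, and limma called 2 of 3 lower, CDH5 and KDR. The highest of these sums came from PECAM1, at 35.8 FPM in KIF20A_OE replicate 2 against 0.689 and 0.321 in the other 2 libraries. Among the called fibroblast and endothelial genes, C1S, PDGFRB, COL1A2, CDH5 and KDR averaged 1 FPM or more only through the group in which they were high. Genes below that average were not tested, so these calls follow from the filter in part. The first principal component separated the 2 groups and took 91.6% of the variance. In every result on the overexpression dataset, the KIF20A level and this difference in cell background cannot be told apart, and in bulk RNA fewer cells of a type and less RNA per cell cannot be told apart either. In the depletion dataset the 4 markers of the line summed to 4446 to 5346 CPM in each of the 9 libraries. Mitochondrially encoded mRNAs took 0.962 to 2.55% of counts in CTRL, 1.47 to 3.41% in SG1 and 0.975 to 2.03% in SG3, and their part in the values below was not tested.

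The 42 members differed widely in level, compared here per kilobase of exon, counting every annotated exon of a gene whether or not it was used. In CTRL the nucleolar phosphoprotein gene NPM1, whose product shuttles ribosomal particles out of the nucleolus, was the member with the most transcript at 329 ± 88.2 CPM per kilobase (SD, n = 3). The mitochondrial chaperonin gene HSPD1 came next at 185 ± 41.4, ahead of NCL at 113 ± 13.8 and CCT3 at 107 ± 9.03, whose spreads overlapped each other. MYC stood at 45.5 ± 7.94 CPM per kilobase in CTRL and at 72 ± 19.6 FPM per kilobase in EV. The neuronal family member MYCN had 0 counts in all 9 depletion libraries, which allows at most 0.0723 CPM per library, and MYCL, the family member first found in lung cancer, reached 0.124 ± 0.0238 CPM per kilobase in CTRL. MYC therefore carried nearly all of the MYC family transcripts in both control groups.

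**Figure D1:**
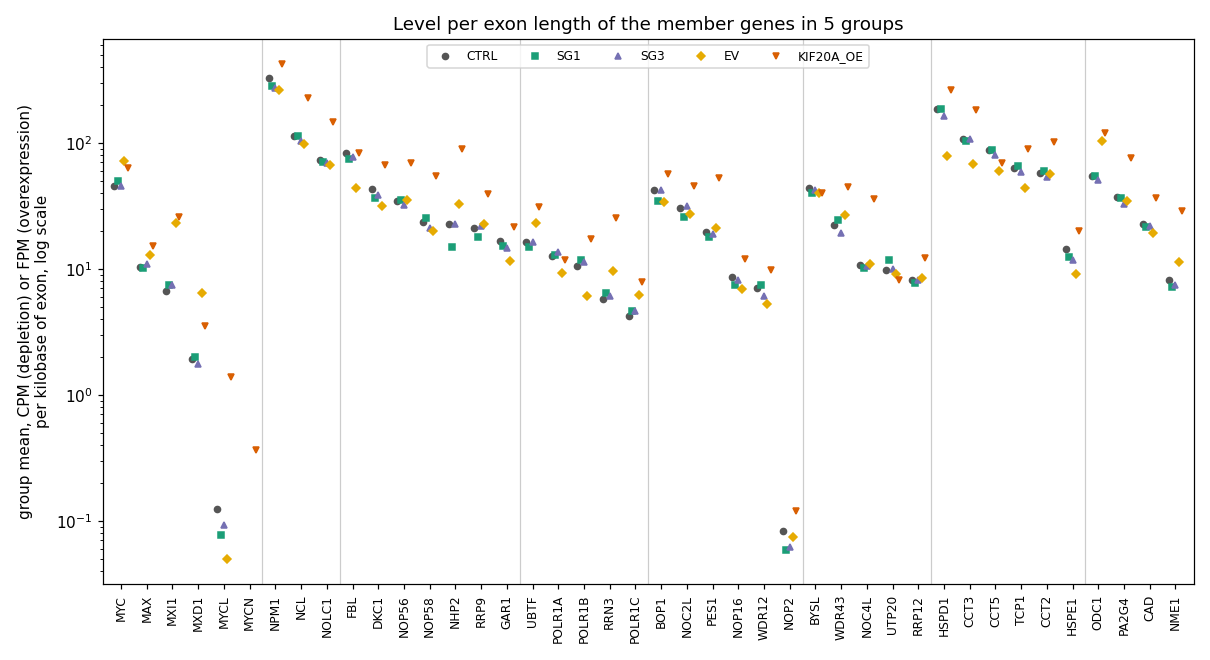
Mean level per kilobase of exon of each member in the 5 groups, on a log axis, in CPM for the depletion dataset and FPM for the overexpression dataset, with vertical lines between the role groups. MYCL and NOP2 lie at or below 0.124 in CTRL, MYCN is drawn only where it is above 0, and the triangles of KIF20A_OE lie above the diamonds of EV for most members; levels were not compared between the 2 datasets, which were scaled separately.

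Within each role the order of levels was wide. Among snoRNP genes FBL, the methyltransferase of box C/D snoRNPs, led with 82.6 ± 8.37 CPM per kilobase in CTRL, and GAR1, a small protein of box H/ACA snoRNPs, was lowest with 16.5 ± 1.29. RNA polymerase I genes were low throughout, from UBTF, the upstream binding factor of ribosomal DNA, at 16.2 ± 1.17 to the subunit gene POLR1C at 4.25 ± 0.023. For large subunit assembly BOP1 was highest at 41.9 ± 3.87, and among small subunit factors BYSL reached 44.1 ± 2.27 against 8.17 ± 0.951 for RRP12. HSPE1 was far below its partner HSPD1, at 14.5 ± 2.62 CPM per kilobase. ODC1, the first enzyme of polyamine synthesis, led the metabolic genes at 54.6 ± 12.2, and NME1, a nucleoside diphosphate kinase, was lowest at 8.11 ± 1.09. The large subunit methyltransferase gene NOP2 was listed at 0.102 to 0.574 CPM, and 54.4% of its exon bases lie on the same strand as those of another annotated gene, AC006064.6, so its value may miss shared reads and is uncertain. Smaller shares of exon bases are shared by NME1 with NME1-NME2 (18.6%) and by HSPE1 with HSPE1-MOB4 (9.71%). Both of these overlapping genes had 0 counts in the depletion dataset. The low levels of NME1 and HSPE1 may therefore miss shared reads and are uncertain too. NPM1 and HSPD1 have processed pseudogene copies, and the sources used here do not give how reads shared by copies were assigned.

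With KIF20A depleted, no member passed the test. The depletion comparisons asked whether MYC or the ribosome and chaperonin genes differed with a lower KIF20A level. KIF20A itself was not called by edgeR in SG1 or SG3 (adjusted p = 0.913 and 0.33). Members that were not called are therefore not shown to be unchanged. Of 41 members tested, 0 passed in SG1 against CTRL, where edgeR called 0% of all 16786 genes, and 0 passed in SG3 against CTRL or in SG1 against SG3, where it also called 0%. At an unadjusted p under 0.05 there was 1 member in SG1 against CTRL (4.59% of all genes), 0 in SG3 against CTRL (1.19%), 0 for the mean of both knockdown groups (1.76%) and 2 in SG1 against SG3 (4.74%). DESeq2 called 2 genes in SG1, 4 in SG3 and 4 between them, and 0 of these were members. The median log2 fold change of the members was -0.04 in SG1, with 17 of 41 positive, and -0.08 in SG3, with 12 of 41 positive. Over all genes 49.7% and 46.7% were positive. For the mean of both knockdown groups 8 of 41 members were positive, with a median of -0.06, against 46.9% of all genes. These comparisons share the CTRL libraries. The SG3 median was 0.01, with 23 of 41 positive, without SG3 replicate 1, and -0.17 without SG3 replicate 3. Together the 42 members accounted for 0.734 ± 0.0742% of CTRL counts (SD, n = 3), for 0.702 ± 0.0512% of SG1 counts and for 0.697 ± 0.0518% of SG3 counts, so the groups differed by less than their spread.

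**Figure D2:**
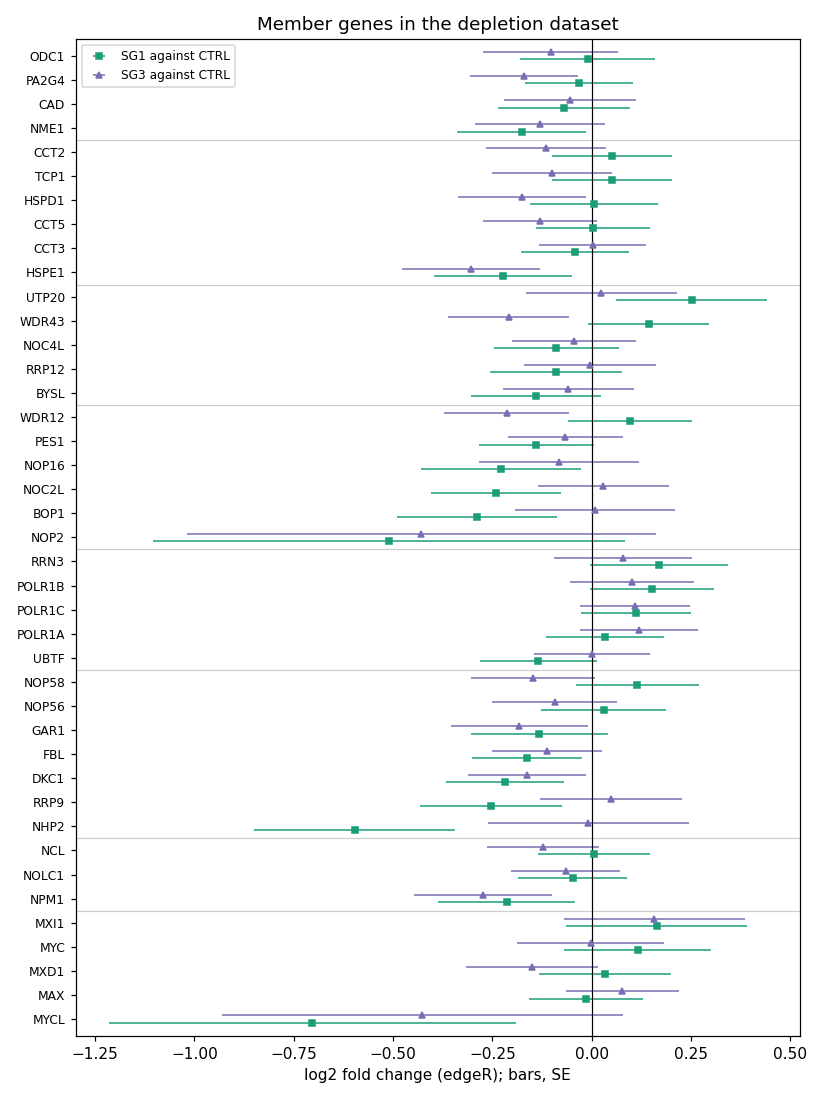
Log2 fold change (edgeR) of the 41 tested members in SG1 (squares) and SG3 (triangles) against CTRL, with bars of 1 SE and lines between the role groups. Most bars cross or touch 0, the widest belong to the low-count genes MYCL and NOP2, and NHP2 in SG1 at -0.60 is the one member with an unadjusted p under 0.05.

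MYC did not separate the groups. Its libraries lay at 162, 133 and 115 CPM in CTRL, 140, 112 and 193 in SG1, and 144, 129 and 136 in SG3. All 3 groups overlapped, and the log2 fold change was 0.12 ± 0.19 (SE) in SG1 and -0.002 ± 0.19 in SG3 (edgeR adjusted p = 0.947 and 1). MYCL was at 0.495 to 0.729 CPM in CTRL, 0.184 to 0.599 in SG1 and 0.298 to 0.571 in SG3, on 9 to 36 counts a library, and its log2 fold changes of -0.70 ± 0.51 and -0.43 ± 0.51 were not called. Among the partners and competitors of MYC, MXI1 had 0.16 ± 0.23 in both knockdown groups, and MXD1 had -0.15 ± 0.17 in SG3.

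NPM1 and the chaperonin HSPE1 had negative estimates in both knockdown groups, and CTRL replicate 3 was the highest library for both. NPM1 lay at 1058, 1068 and 1648 CPM in CTRL, against 985 to 1175 in SG1 and 963 to 1104 in SG3. The other 2 CTRL libraries lay within the range of SG1. The log2 fold change of NPM1 was -0.21 ± 0.17 in SG1 and -0.27 ± 0.17 in SG3 (edgeR adjusted p = 0.916 and 1), and without CTRL replicate 3 it was 0.01 and -0.04. HSPE1 lay at 25.2, 26.1 and 34.6 CPM in CTRL, 22.5, 27.7 and 23.2 in SG1 and 19.9, 23 and 26.7 in SG3, again with CTRL replicate 3 highest. Its log2 fold change was -0.22 ± 0.17 in SG1 and -0.30 ± 0.17 in SG3, neither called, and without CTRL replicate 3 it was -0.09 and -0.15. HSPD1 and the CCT subunit gene CCT2 followed the same library: in CTRL they were at 660 to 712 CPM and 217 to 224 CPM in replicates 1 and 2, and at 987 and 311 CPM in replicate 3.

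The snoRNP gene NHP2 and the assembly genes BOP1 and NOC2L divided the libraries in another way. NHP2, a core protein of box H/ACA snoRNPs, was at 39.4, 37.4 and 25.6 CPM in CTRL, 23.7, 25.5 and 18.5 in SG1, and 19.6, 40.6 and 41.6 in SG3. CTRL replicates 1 and 2 and SG3 replicates 2 and 3 were high, and the other 5 libraries were low, whichever group they belonged to. The log2 fold change in SG1 was -0.60 ± 0.25, with an unadjusted p of 0.0333 and an edgeR adjusted p of 0.913, and in SG3 it was -0.01 ± 0.25. BOP1, which acts with PES1 and WDR12 in 1 complex, had 172, 153 and 143 CPM in CTRL, 116, 124 and 143 in SG1, and 99.6, 177 and 194 in SG3. The low libraries SG1 replicate 1 and SG3 replicate 1 were low for NOC2L too, which helps move the large subunit out of the nucleolus, at 131 and 137 CPM against 154 to 201 in CTRL. For NOC2L the other SG1 libraries also lay below every CTRL library, by less. The 5 libraries in which NHP2 was low lay at 17.3 to 32.5 on the first principal component of all genes, and the other 4 at -35.3 to -22.2 (22% of the variance). The part of that division in the values of NHP2 was not tested.

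**Figure D3:**
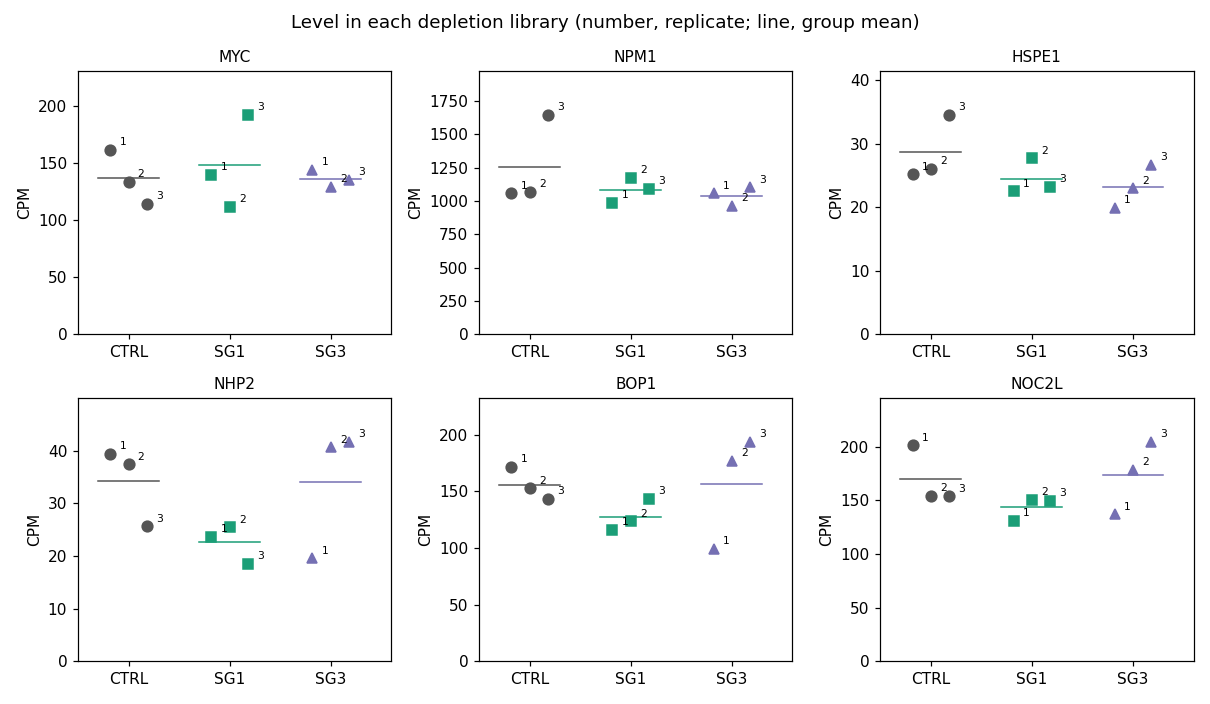
Level in CPM of 6 members in each depletion library, with the replicate number beside each point and a line at each group mean, on axes from 0. NPM1 and HSPE1 are highest in CTRL replicate 3, and NHP2 is low in CTRL replicate 3, all SG1 libraries and SG3 replicate 1.

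Of the RNA polymerase I members 4 of 5 had positive estimates in SG1 and 5 of 5 in SG3, where UBTF lay at 0.001, with 0 called. The 11 other RNA polymerase I genes did not share this sign, with 6 positive in SG1 and 1 in SG3 (median -0.04), and 0 of them were called. POLR1C was at 23.4 to 23.7 CPM in CTRL, 23.9 to 27.5 in SG1 and 24.3 to 26.2 in SG3, and so it lay above CTRL in all 6 knockdown libraries. It was the single member higher without overlap in SG1 (4.96% of all genes) and in SG3 (2.28%). It was also the only member whose 6 knockdown libraries together did not overlap CTRL, which held for 0.977% of all genes, 0.536% higher and 0.441% lower. Its log2 fold change was 0.11 ± 0.14 in each (edgeR adjusted p = 0.936 and 1). RRN3, the initiation factor that recruits RNA polymerase I, and POLR1B, a core subunit, had 0.17 ± 0.17 and 0.15 ± 0.16 in SG1, not called. Lower without overlap in SG1 were 5 members (7.21% of all genes), which made 6 of 41 in either direction against 12.2% of all genes. They were FBL, DKC1, NHP2, PES1 and NOC2L. DKC1, the pseudouridine synthase of box H/ACA snoRNPs, lay at 145 to 168 CPM against 171 to 193 in CTRL, and its log2 fold change was -0.22 ± 0.15 (edgeR adjusted p = 0.913). In SG3 it was 1 member (2.38%), WDR43, a factor of the small subunit processome, whose highest SG3 library lay just under the lowest of CTRL, which made 2 of 41 in either direction against 4.66%.

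Between SG1 and SG3 the members with an unadjusted p under 0.05 were WDR43 and NHP2, at 0.0356 each. WDR43 was at 92.7, 87.4 and 124 CPM in SG1 and 80.6, 77.2 and 80.2 in SG3, and WDR12 at 65.3, 60.6 and 78.3 against 57.2, 54.4 and 53. Both genes were higher in every SG1 library than in every SG3 library, as were CCT2 and TCP1, 4 members in all (6.26% of all genes), with 0 lower (4.55%), or 10.8% of all genes in either direction. Of 41 members 22 were positive, against 51.9% of all genes. The log2 differences were 0.35 ± 0.15 for WDR43 and 0.31 ± 0.16 for WDR12, and edgeR called neither (adjusted p = 0.861 each). UTP20, a scaffold protein of the small subunit processome, had 0.25 ± 0.19 in SG1 and 0.02 ± 0.19 in SG3. Among the metabolic genes, NME1 had -0.18 ± 0.16 and -0.13 ± 0.16, and PA2G4, a growth regulator bound to ribosomes, -0.03 ± 0.14 and -0.17 ± 0.14.

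On the FPM as deposited, most ribosome assembly and chaperonin members were higher in the libraries labelled KIF20A_OE than in EV. MYC did not pass the test. Of 40 members tested, 30 were higher by limma, where 46.2% of all 15265 genes were called higher, and 1 was lower, where 23.4% were. The other 9 did not pass, and the 31 called members stand against 69.6% of all genes called in either direction. The libraries of the 2 groups did not overlap for 33 members that were higher (48.9% of all genes) and 1 that was lower (25.2%), 34 of 40 against 74.1%. The difference was positive for 37 members, against 63.4% of all genes. The median difference over all genes was itself 0.37 in log2(FPM + 1), and the members' median was 0.86. Differences are on that scale, which understates the change of low genes, and 30 of the 40 members lay above the median of all genes. MYCL passed the filter on low values only through the libraries in which it was high, so its call follows from the filter in part. Without it 29 of 39 members were higher, with a median of 0.85. The members made up 0.626 ± 0.081% of EV fragments (SD, n = 3) and 1.16 ± 0.117% of those in the other group, with every library of the second group above every EV library.

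Scaling changed the size of this picture. With TMM factors, which lower the median of all genes to 0.08 in edgeR on the recovered fragments and to 0.04 in limma on rescaled FPM, the members' median was 0.51 and 23 members were called higher in each, with 3 and 2 lower. That is 57.5% of members in each, where 33.2% and 34% of all genes tested were called higher. Among all calls the share in the higher direction was then 52.1% and 51%, against 66.4% without the factors. Quantile normalization gave 31 members higher and 1 lower, 77.5% of members against 36.3% of all genes called higher. Of all calls 54.3% were then in the higher direction. With it CCT5 and POLR1A were called higher (0.40 and 0.34, limma adjusted p = 0.0291 and 0.0447). NOP16 was no longer called (0.46, limma adjusted p = 0.0835). The same 23 members were called higher under all 4 scalings, 22 without MYCL. Calls ended with both kinds of TMM scaling for NPM1, RRP9, UBTF, NOP16, BOP1, NOC2L and RRP12. With both kinds the sign turned for MAX, MXI1, POLR1A, POLR1C, CCT5, ODC1 and BYSL. These were not called on the FPM as deposited, and are named after their values were seen.

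**Figure D4:**
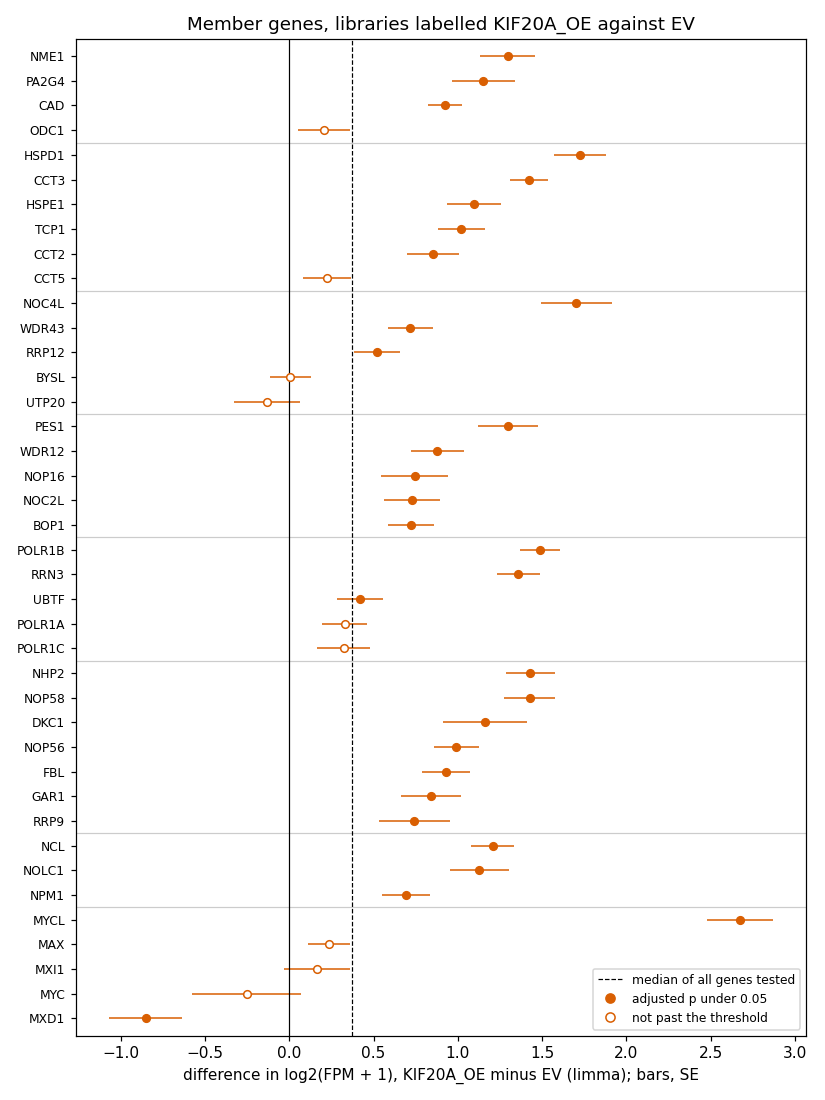
Difference in log2(FPM + 1) between the libraries labelled KIF20A_OE and EV (limma) for the 40 tested members by role, with bars of 1 SE, filled circles for an adjusted p under 0.05 and a dashed line at the median of all genes tested. All snoRNP, nucleolar phosphoprotein and large subunit members are filled and right of the dashed line at 0.37, and MXD1 is the one filled circle left of 0.

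Within the MYC network the members went in different directions. MYC lay at 202, 281 and 166 FPM in EV and 106, 227 and 231 FPM in the libraries labelled KIF20A_OE. The groups overlapped, and the log2 difference of -0.25 ± 0.32 did not pass (limma adjusted p = 0.503). Without KIF20A_OE replicate 1, the low library, it was 0.12. With TMM scaling it was -0.57 in edgeR and -0.61 in limma, also not called (adjusted p = 0.14 and 0.139). MYCL was at 0.381, 0.193 and 0.176 FPM in EV and 5.7, 7.71 and 7.66 FPM in the other group, on 15 and 405 fragments in all. That is a ratio of pooled rates of 27.9 (95% interval 16.7 to 50.3, counting error only), and the fitted log2 difference of 2.67 is given with no test because of the filter. MYCN was listed at 0 in EV, had 8, 19 and 28 fragments in the other libraries, and was too low to be tested. The pooled rate of those libraries was 6.31-fold over a floor of 3 fragments per EV library, with no allowance for their own counting error. Even so, MYC remained the dominant family member in the libraries labelled KIF20A_OE, at 62.6 ± 23.7 FPM per kilobase against 1.39 ± 0.226 for MYCL. MXD1, a competitor of MYC for MAX, was lower, at 49.9, 38.8 and 33.9 FPM in EV and 27.2, 16.7 and 23 in the other group (-0.85 ± 0.22, limma adjusted p = 0.00724).

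The nucleolar phosphoproteins and snoRNP proteins were all higher, 3 of 3 and 7 of 7, beside 46.2% of all genes. With TMM scaling in edgeR it was 2 of 3 and 6 of 7, beside 33.2%. NCL, which binds ribosomal RNA precursors, was at 616, 775 and 641 FPM in EV and 1408, 1670 and 1603 in the libraries labelled KIF20A_OE. The groups lay far apart relative to their spread, and the log2 difference was 1.21 ± 0.13 (limma adjusted p = 5.74e-05). NPM1, the most abundant member per kilobase, was at 920, 1209 and 908 FPM against 1489, 1793 and 1593, a log2 difference of 0.69 ± 0.14 (limma adjusted p = 0.00256), or 0.32 above the median of all genes. NOLC1, a chaperone of snoRNPs, rose by 1.13 ± 0.18. Both snoRNP classes were represented. For box H/ACA, NHP2 was at 46.2, 56.7 and 45.8 FPM in EV and 116, 149 and 140 in the other group (1.43 ± 0.15, limma adjusted p = 4.21e-05), and DKC1 rose by 1.16 ± 0.25. For box C/D, NOP58 was at 61.6, 76.2 and 59.4 FPM against 152, 202 and 181 (1.43 ± 0.15, limma adjusted p = 5.62e-05). Its partner NOP56 rose by 0.99 ± 0.13 and FBL by 0.93 ± 0.14. RRP9, which belongs to the U3 snoRNP, had the smallest of the 7 differences at 0.74 ± 0.21.

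**Figure D5:**
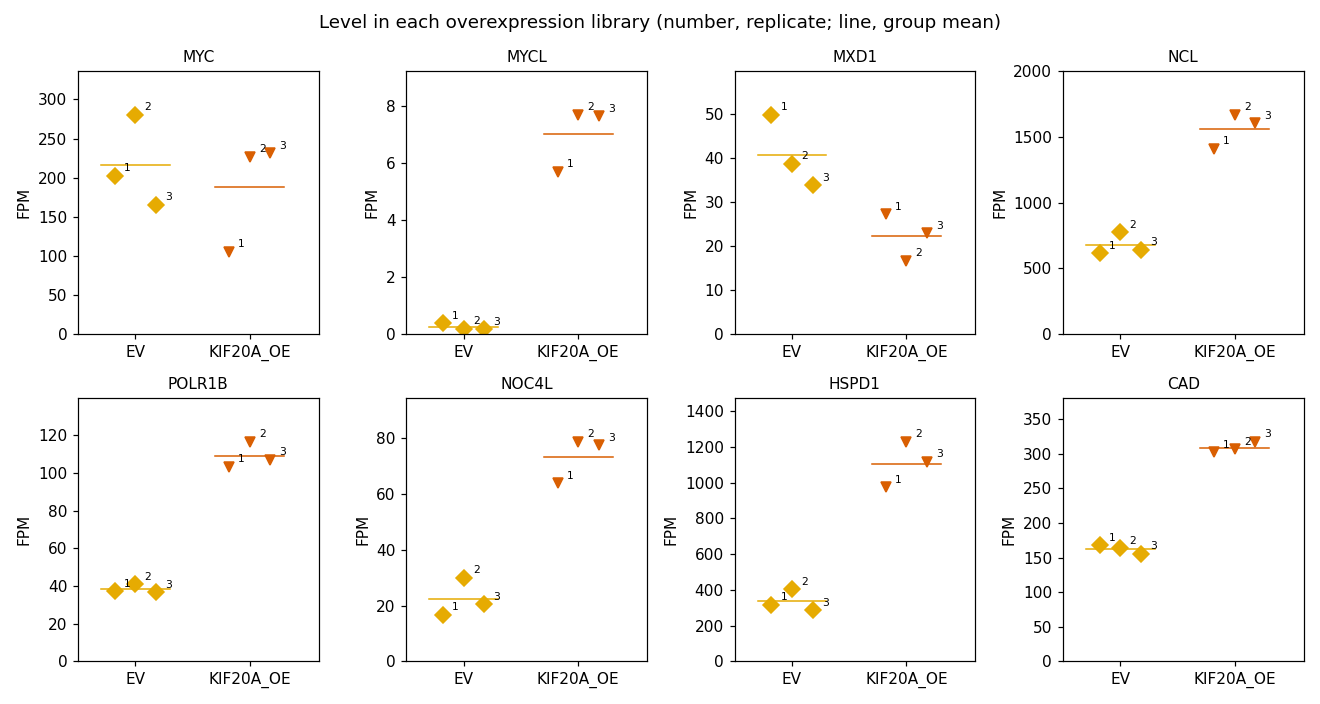
Level in FPM of 8 members in each overexpression library, with the replicate number beside each point and a line at each group mean, on axes from 0. The groups overlap for MYC, MXD1 is lower in all 3 libraries labelled KIF20A_OE, and the other 6 members are higher in all 3.

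RNA polymerase I genes were unequal. POLR1B was at 37.1, 40.9 and 36.7 FPM in EV and 103, 116 and 107 in the libraries labelled KIF20A_OE, a log2 difference of 1.49 ± 0.12 (limma adjusted p = 1.03e-05). RRN3 was at 40.6, 43.8 and 35.7 against 97.7, 111 and 103 (1.36 ± 0.13, limma adjusted p = 2.76e-05). These 2 genes stood well above the median of all genes, while UBTF, at 0.42 ± 0.14, was 0.05 above it. Its call ended without EV replicate 3 or KIF20A_OE replicate 2 (limma adjusted p = 0.0632 and 0.0633). POLR1A, the gene of the catalytic subunit, had 0.33 ± 0.13 and did not pass (limma adjusted p = 0.0548). So 3 of 5 members were called higher, beside 46.2% of all genes. With TMM scaling in edgeR it was 2 of 5, beside 33.2%. The median of the role was close to that of all genes, at 0.42 against 0.37, and at 0.06 against 0.08 with TMM scaling in edgeR.

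For the large subunit all 5 tested assembly genes were higher, beside 46.2% of all genes. With TMM scaling in edgeR it was 2 of 5, beside 33.2%. PES1 lay at 90.2, 116 and 83.9 FPM in EV and 220, 293 and 206 in the libraries labelled KIF20A_OE (1.30 ± 0.18, limma adjusted p = 0.000233), and its complex partners differed in size, with WDR12 at 0.88 ± 0.16 and BOP1 at 0.72 ± 0.14. NOC2L and NOP16 rose by 0.73 ± 0.17 and 0.74 ± 0.20. For the small subunit 3 of 5 members were higher, beside the same 46.2%. With TMM scaling in edgeR 2 of 5 were higher (33.2% of all genes) and 2 lower (5216 of 17078 genes). The median of the role was then 0.16, against 0.08 over all genes. NOC4L, a factor of the late processome, was at 16.7, 29.9 and 20.5 FPM against 63.7, 78.6 and 77.4 (1.70 ± 0.21, limma adjusted p = 0.00014). WDR43 rose by 0.72 ± 0.13 and RRP12, an export factor, by 0.52 ± 0.13, which was 0.15 above the median of all genes. UTP20 and BYSL, a factor of small subunit maturation, did not follow. UTP20 lay at 69.4, 115 and 87.7 FPM in EV and 73.3, 94.7 and 76.6 in the other group, and BYSL at 84.1, 94.7 and 89.4 against 85.5, 99.6 and 84.6. Their differences of -0.13 ± 0.19 and 0.01 ± 0.12 were not called by limma, and both were called lower by edgeR with TMM scaling (-0.52 and -0.36, adjusted p = 0.0402 and 0.0245).

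Of the chaperonins 5 of 6 were higher, under TMM scaling in edgeR as well (46.2% and 33.2% of all genes). HSPD1 was at 318, 404 and 286 FPM in EV and 974, 1228 and 1118 in the libraries labelled KIF20A_OE, the largest difference among the 39 members other than MYCL (1.73 ± 0.16, limma adjusted p = 2.11e-05). HSPE1, which shares the short stretch with the motif, was at 15.9, 20.5 and 17.5 FPM against 38.3, 45.2 and 35.3 (1.10 ± 0.16, limma adjusted p = 0.00039). Both mitochondrial genes were thus higher in every library of the second group. The transcripts of the cytosolic ring, which is built from different subunits in equal numbers, differed unequally. CCT3 was at 257, 299 and 258 FPM against 776, 703 and 703 (1.42 ± 0.11, limma adjusted p = 1.05e-05), TCP1 rose by 1.02 ± 0.14 and CCT2 by 0.85 ± 0.15. CCT5 overlapped between the groups, at 306, 401 and 338 FPM against 358, 453 and 405 (0.22 ± 0.14, limma adjusted p = 0.193).

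Among growth and nucleotide genes 3 of 4 were higher, also with TMM scaling in edgeR (46.2% and 33.2% of all genes). CAD, the enzyme of the first steps of pyrimidine synthesis, was at 168, 163 and 156 FPM in EV and 302, 306 and 317 in the libraries labelled KIF20A_OE, with replicates close together (0.93 ± 0.10, limma adjusted p = 6.94e-05). NME1 was at 34.4, 43.4 and 39.6 against 87.3, 119 and 88.2 FPM (1.30 ± 0.16, limma adjusted p = 0.00014), and PA2G4 rose by 1.15 ± 0.19. ODC1, a classical MYC target with 2 motifs in its promoter window, overlapped between the groups at 290, 303 and 325 against 298, 440 and 335 FPM (0.21 ± 0.15, limma adjusted p = 0.259). Over the members with a promoter window, 8 of 11 with CACGTG were called higher (median 0.84) and 18 of 24 without it (median 0.90). Of all genes 46.2% were called higher.

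The rest of each pathway was read from lists of genes other than the members. In the depletion comparisons 0 genes of these 6 lists were called by edgeR, which called 0% of all genes. In the libraries labelled KIF20A_OE limma, without TMM factors, called 46.2% of all genes higher and 23.4% lower. Beside that, it called 25 of 33 other large subunit assembly genes higher (75.8%) and 0 lower, with URB2 highest at 2.30 ± 0.16. It called 21 of 30 other small subunit processome genes higher (70%) and 2 lower, with HEATR1 highest at 2.17 ± 0.20. Of 10 other snoRNP genes 7 were called higher (70%) and 1 lower, with TCOF1 highest at 1.75 ± 0.19. The list of other chaperonin and prefoldin genes also holds TRAP1 and HSPA9, mitochondrial chaperone genes that are neither. It gave 8 of 12 higher (66.7%) and 1 lower, with TRAP1 highest at 1.78 ± 0.17. Other RNA polymerase I genes gave 4 of 11 higher (36.4%, below the share of all genes) and 1 lower, with a list median of 0.36, close to the 0.37 of all genes. Other MYC network genes were split, 3 of 9 higher (33.3%, also below the share of all genes) and 3 lower. MXD4 was higher (1.07 ± 0.21), and MNT, a repressor that pairs with MAX, was lower (-0.40 ± 0.15).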

How the data were processed

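The depletion values were raw counts per gene deposited by the authors, per the labels. Of those from 10 to 50, 62.9 to 68% per library were even, so read pairs may in part have been counted as 2 reads. Small counts and floors may then stand for fewer fragments, and counts divided by 2 were tried for that reason. Per the labels the overexpression values are FPKM. Their deposited columns each sum to 1000000 and came out as whole fragments for 100% of values within 0.001 fragments, so they were read as FPM, the fragment form of CPM, and the planned limma test was kept. Build hg38 is named in the submitters' processing notes, which also list STAR 2.7.3a, Subread 1.6.3 with featureCounts, Trim Galore 0.6.4 and limma 3.50.3. The sources used here do not give the strand setting, annotation release or filters. Groups and replicate numbers came from sample titles.

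For counts, edgeR 4.0.16 gave the quasi-likelihood test (R 4.3.3, TMM, default expression filter, one fit of 9 libraries). FPM were tested with limma 3.58.1 (trend, robust) on log2(FPM + 1), for genes averaging 1 FPM or more, and p-values were adjusted by Benjamini-Hochberg over all genes, with a threshold of 0.05. The tests were tried on simulated data in which few genes changed, in either direction at random. That setting differs from the overexpression dataset, and no result here rests on it. Alternatives were other size factors, DESeq2 1.42.0, limma-voom, no filter, pseudocounts of 0.5 and 2, recovered fragments, quantile and TMM scaling (the last added after seeing the data), a replicate block, counts divided by 2 and leaving out each library. Depletion levels are CPM with TMM library sizes. Exon lengths and overlaps came from GENCODE 29, and promoter windows from RefSeq. A floor is 3 counts, and intervals and floors cover counting error only.

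The members and gene lists were chosen with earlier results of these data known. Named were MYC, members past the threshold, and the 2 members of each role with the smallest p in a comparison, and for levels the extremes of each role. The result for 1 marker gene of another cell type is not reported here.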

Additional observations from a re-analysis of the deposited data

How the results depend on the processing

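In the depletion comparisons 0 members were called under any alternative. Counts of all genes called by edgeR were 0 in SG1 against CTRL, SG3 against CTRL, the mean of both and SG1 against SG3, and became 2, 4, 4 and 4 with DESeq2 and 91, 8, 20 and 77 with no filter on low counts, where more genes were tested. Leaving out a library gave 0 to 1, 0, 0 to 2 and 0 to 5 calls in that order, the 1 and the 2 without SG1 replicate 2 and the 5 without SG3 replicate 1. The log2 fold change of MYC in SG3 against CTRL turned positive with RLE size factors (0.0069), DESeq2 (0.00594), limma-voom (0.011) and no filter (0.027), and no cause was tested.

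With a library left out, log2 fold changes that crossed 0 ran from -0.12 to 0.28 for MYC in SG1 against CTRL, -0.12 to 0.13 in SG3 against CTRL, -0.070 to 0.19 for the mean of both and -0.11 to 0.26 in SG1 against SG3. In SG1 against CTRL they ran from -0.058 to 0.22 for CCT2, -0.21 to 0.060 for CAD, -0.34 to 0.0087 for NPM1, -0.13 to 0.00046 for NOLC1, -0.034 to 0.24 for POLR1B and -0.025 to 0.24 for WDR43. In SG3 against CTRL they ran from -0.25 to 0.014 for HSPD1, -0.26 to 0.0071 for DKC1, -0.34 to 0.0029 for GAR1, -0.17 to 0.14 for BYSL and -0.24 to 0.015 for NME1. For the mean of both they ran from -0.11 to 0.024 for NCL and -0.17 to 0.098 for HSPD1, and in SG1 against SG3 from -0.028 to 0.11 for NPM1 and -0.029 to 0.18 for ODC1.

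In the libraries labelled KIF20A_OE, MYC ran from -0.44 to 0.12 with a library left out and was -0.57 and -0.61 with TMM scaling in edgeR and limma, and 30 to 32 members were called. The members' median of 0.86 became 0.51 both in edgeR on recovered fragments with TMM scaling and in limma on FPM divided by TMM factors. With the replicate block, limma called 31 members higher and 1 lower in the libraries labelled KIF20A_OE, and edgeR called 0 genes in each depletion comparison. Same-numbered libraries deviated from their group means with correlations of -0.11 to 0.16 in the depletion dataset and 0.014 to 0.058 in the overexpression dataset, so the numbers were not taken as pairs. The fit of only the libraries compared was not run for the mean of both, which uses all 9. Counts of 9 to 36 for MYCL and 5 to 26 for NOP2 per depletion library limit what can be seen of these genes.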
